A study of Mus musculus with 9 samples.

Results

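The 37 genes encoded in the mouse mitochondrial genome were followed in 9 liver RNA-seq libraries. They were chosen by name, as every row whose Ensembl gene ID maps to a symbol beginning with mt-, and they make up 37 of the 45513 gene IDs in the deposited count table. They comprise 13 protein genes, 22 tRNA genes and 2 rRNA genes. Of these, 14 had enough counts to be tested together with 12102 genes in all: 7 protein genes, 5 tRNA genes and both rRNA genes. A further 13 had no count in any library, 6 of them protein genes and 7 tRNA genes.

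The study measured liver RNA of C57BL/6 mice after 9 weeks of diet and treatment, with 3 mice in each of 3 groups. The first group ate a high fat diet and received B-LGND2, which the series title describes as a ligand of the estrogen receptor beta. The second group ate the high fat diet and received vehicle, and the third ate a normal diet and received vehicle. The ligand was given only on the high fat diet, so the first group differs from the third in both diet and ligand; the sources used here do not give the dose, the sex and age of the mice or the make-up of the diets.

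Mitochondrial DNA is transcribed from both strands into long precursors that carry protein, rRNA and tRNA sequences end to end. The tRNA sequences are cut out of the precursor, at the 5′ end by mitochondrial RNase P and at the 3′ end by Elac2, and this frees the neighbouring mRNAs and rRNAs. The heavy strand genes include both rRNAs, most tRNAs and all but one of the protein genes, while the light strand genes are mt-Nd6 and a smaller set of tRNAs. The proteins are subunits of the respiratory chain and ATP synthase, on which the liver depends for fatty acid oxidation, urea synthesis and gluconeogenesis. Most of the mRNAs end in short poly(A) tails, and mature tRNAs end in CCA without such a tail.

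The libraries were made from poly(A)-enriched RNA and held 5778978 to 10322972 counts each, of which mitochondrial genes took 5.70%, 4.43% and 5.72% in the high fat B-LGND2 livers, 5.65%, 5.71% and 6.12% in the high fat vehicle livers and 12.7%, 3.81% and 3.69% in the normal diet vehicle livers. Replicate 1 of the normal diet vehicle group thus stood apart from the other 8 libraries. The 8 hepatocyte markers were present in every library, with 8.01% to 10.6% of all counts. Of 10 macrophage markers, 9 were higher in high fat B-LGND2 than in high fat vehicle livers, where 3.07% of all genes were called higher, with summed levels of 1130 to 1487 CPM against 326 to 439 CPM, where CPM is counts per 1000000 of the scaled library total. None of the 10 passed the test between high fat vehicle and normal diet vehicle livers, which summed to 348 to 596 CPM, and their part in the results below was not tested. In whole liver, fewer cells of a type and less RNA per cell cannot be told apart.

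The genes without counts lay mostly together. From mt-Ts1 to mt-Nd4l, over 3304 bases at chrM:6870-10173 (GRCm38), 10 of 11 genes had no count in any of the 9 libraries, and the other, mt-Tr, had 3 counts in all. This stretch holds the protein genes mt-Co2 and mt-Co3 (cytochrome c oxidase), mt-Atp8 and mt-Atp6 (ATP synthase), and mt-Nd3 and mt-Nd4l (complex I), as well as the tRNA genes mt-Ts1, mt-Td, mt-Tk and mt-Tg. The flanking genes mt-Co1 and mt-Nd4 had 918878 and 438494 counts in all. Outside the stretch, the tRNA genes mt-Tw, mt-Ty and mt-Th were at 0.

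The GENCODE M21 transcripts contain near-identical nuclear copies of these protein genes, all on the nuclear pseudogene block chr1:24611535-24616197 (GRCm38). The copies of mt-Co2 (Gm28661), mt-Atp6 (Gm10925), mt-Co3 (Gm28437) and mt-Nd4l (Gm10222) were 100% identical over 681, 678, 783 and 294 bases, and mt-Atp8 shared 43 bases with Gm10925. The copy of mt-Nd3, Gm28438, had 1 difference in 345 bases, T3C, with the mitochondrial base first and positions counted from 1 at the 5′ end of the gene. The first 15 bases of both are shown because this base is all that separates the sequences, and it stands in capitals.
mt-Nd3: atTaacctgtacact
Gm28438: atCaacctgtacact

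Gm28438 was the copy with most counts. It had 32, 30 and 52 counts in high fat B-LGND2 livers, 92, 99 and 82 in high fat vehicle livers and 132, 64 and 155 in normal diet vehicle livers. The copies of the other genes at 0 had no count, and the copy of the first 876 bases of mt-Nd4, Gm28439, had 2 counts in all. Gm28438 was lower in high fat B-LGND2 than in high fat vehicle livers, with a log2 fold change of -1.32 (SE 0.35, adjusted p = 0.0389, edgeR quasi-likelihood test, Benjamini-Hochberg over all genes). Without any one high fat vehicle library, or without replicate 1 or 2 of the high fat B-LGND2 group, the adjusted p lay between 0.0753 and 0.176. It was also lower in high fat B-LGND2 than in normal diet vehicle livers (-1.67, SE 0.35, adjusted p = 0.0187, and 0.101 or 0.0673 without replicate 1 or 2 of the high fat B-LGND2 group). The sources used here do not say how the authors' counting treated reads that fit both copies, so values for the 6 protein genes, the shared parts of mt-Co1 and mt-Nd4, and Gm28438 are uncertain. Copies were sought only among annotated transcripts and not in the whole genome, so values for the tRNA genes of the same stretch may be uncertain too.

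**Figure D1:**
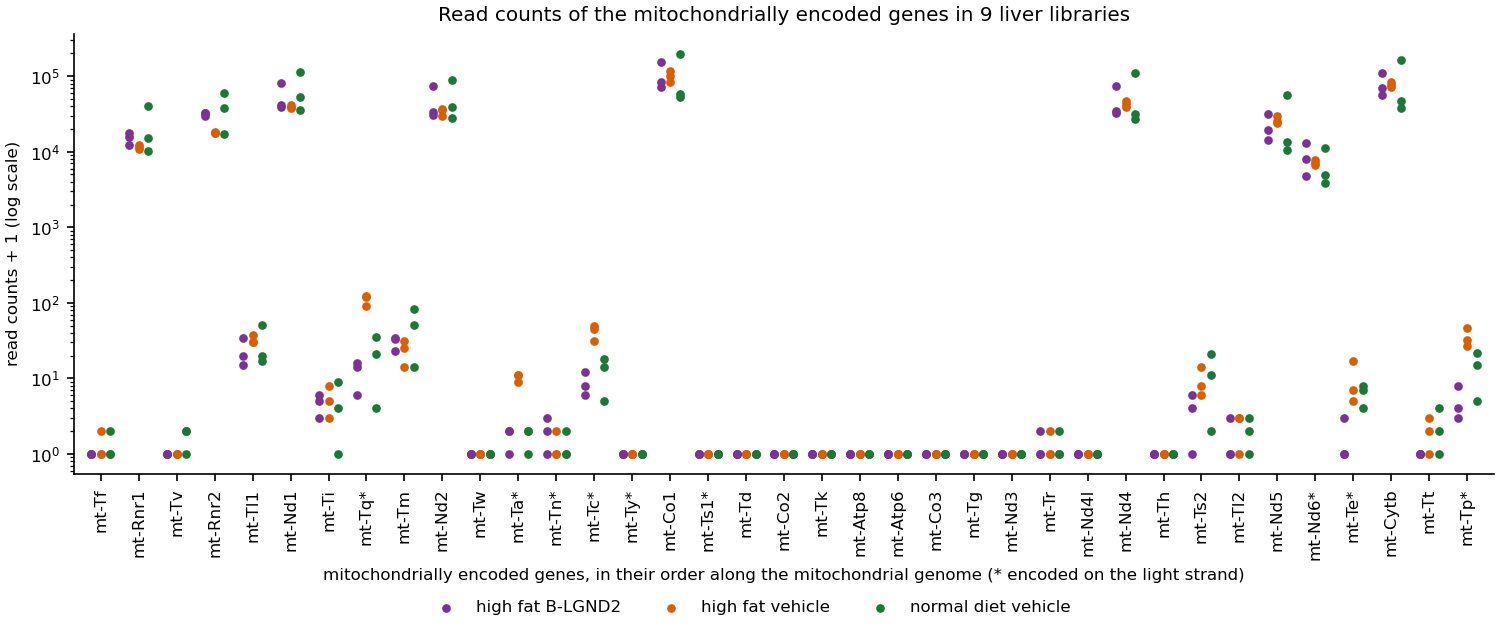
Read counts plus 1, on a log scale, of all 37 mitochondrially encoded genes in genome order (horizontal axis), with 1 point per library and colours for the 3 groups; light strand genes carry an asterisk. The protein and rRNA genes with counts lie well above the tRNA genes, whose highest count is 123, and the genes from mt-Ts1 to mt-Nd4l lie at or near 0 in all 9 libraries.

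The tRNA genes carried few counts: 89, 64 and 97 in the high fat B-LGND2 livers, 231, 300 and 287 in the high fat vehicle livers and 184, 48 and 201 in the normal diet vehicle livers. Of the 22 genes, 15 had counts, and 5 passed the filter on low counts. Per gene length, the 5 averaged 49.5 to 232 CPM per kb in high fat vehicle livers, while the 7 protein genes with counts averaged 2099 to 10228 CPM per kb there. The sequences of the 3 light strand genes that changed, of 2 more light strand genes with fewer counts, and of the 2 tested heavy strand genes set beside them are given from the GENCODE M21 transcripts (GRCm38), 5′ to 3′ in DNA letters, with the anticodon in capitals.
mt-Tq, tRNA for glutamine, light strand, chrM:3772-3842: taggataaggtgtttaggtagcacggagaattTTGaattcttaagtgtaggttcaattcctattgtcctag
mt-Tc, tRNA for cysteine, light strand, chrM:5192-5257: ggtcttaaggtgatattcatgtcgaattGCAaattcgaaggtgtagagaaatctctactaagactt
mt-Tp, tRNA for proline, light strand, chrM:15356-15422: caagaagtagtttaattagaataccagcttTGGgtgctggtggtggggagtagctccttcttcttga
mt-Ta, tRNA for alanine, light strand, chrM:5018-5086: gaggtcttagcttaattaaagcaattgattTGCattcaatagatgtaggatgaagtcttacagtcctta
mt-Te, tRNA for glutamate, light strand, chrM:14071-14139: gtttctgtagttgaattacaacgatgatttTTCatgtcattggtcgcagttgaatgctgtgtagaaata
mt-Tl1, tRNA for leucine, heavy strand, chrM:2676-2750: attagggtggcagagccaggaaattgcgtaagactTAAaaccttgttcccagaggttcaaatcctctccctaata
mt-Tm, tRNA for methionine, heavy strand, chrM:3845-3913: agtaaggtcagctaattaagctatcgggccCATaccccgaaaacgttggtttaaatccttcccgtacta

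The 8 light strand tRNA genes were richer in G than the 14 heavy strand ones, with medians of 23.0% and 15.7% G, and poorer in A, with medians of 29.3% and 37.3%. Their longest run of A was 2 to 4 bases, against 3 to 8 bases in the heavy strand genes. mt-Tq lies between mt-Ti and mt-Tm on the opposite strand and overlaps mt-Ti by 3 bases. The sources used here do not say whether strand was used in counting, and without it reads from a light strand gene and from the heavy strand precursor that runs across it cannot be told apart.

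The gene of the glutamine tRNA, mt-Tq, had the most counts of all tRNA genes. It had 5, 15 and 13 counts in high fat B-LGND2 livers, 89, 123 and 117 in high fat vehicle livers and 20, 3 and 34 in normal diet vehicle livers. Scaled, its mean was 1.65 ± 0.93 CPM in high fat B-LGND2, 16.5 ± 1.92 CPM in high fat vehicle and 2.77 ± 2.12 CPM in normal diet vehicle livers (SD, n = 3 each). Every high fat vehicle library was above every library of the other groups, and those 2 groups overlapped.

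The gene of the cysteine tRNA, mt-Tc, followed the same order. It had 7, 5 and 11 counts in high fat B-LGND2 livers, 30, 48 and 44 in high fat vehicle livers and 17, 4 and 13 in normal diet vehicle livers. Its mean was 1.13 ± 0.61 CPM in high fat B-LGND2, 6.10 ± 1.14 CPM in high fat vehicle and 1.70 ± 1.00 CPM in normal diet vehicle livers. The 3 high fat vehicle libraries again stood above the other 6.

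The gene of the proline tRNA, mt-Tp, is the last gene before the control region. It had 2, 3 and 7 counts in high fat B-LGND2 livers, 26, 46 and 31 in high fat vehicle livers and 21, 4 and 14 in normal diet vehicle livers. Its mean was 0.61 ± 0.49 CPM in high fat B-LGND2, 5.18 ± 1.51 CPM in high fat vehicle and 1.96 ± 1.31 CPM in normal diet vehicle livers. Its lowest high fat vehicle library, at 4.29 CPM, was above its highest normal diet vehicle library, at 3.28 CPM. mt-Tp reached the filter's minimum in 2 libraries outside the high fat vehicle group and needed 3, so it was tested because it was high in that group.

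Among the light strand tRNA genes under the filter, mt-Ta (alanine) had 0, 1 and 1 counts in high fat B-LGND2 livers, 8, 10 and 10 in high fat vehicle livers and 0, 1 and 1 in normal diet vehicle livers. mt-Te (glutamate) had 0, 0 and 2 counts in high fat B-LGND2, 6, 16 and 4 in high fat vehicle and 6, 3 and 7 in normal diet vehicle livers. mt-Ta was thus highest in all 3 high fat vehicle libraries, while mt-Te overlapped between both vehicle groups. mt-Tn (asparagine) had 5 counts in all 9 libraries, too few to compare.

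Of the heavy strand tRNA genes, mt-Tl1 and mt-Tm were tested. mt-Tl1 (leucine) had 33, 14 and 19 counts in high fat B-LGND2 livers, 29, 29 and 37 in high fat vehicle livers and 50, 16 and 19 in normal diet vehicle livers. mt-Tm (methionine) had 33, 22 and 32 counts in high fat B-LGND2, 30, 13 and 24 in high fat vehicle and 50, 13 and 83 in normal diet vehicle livers. For both genes the 2 vehicle groups overlapped. The means of mt-Tl1 were 3.02 CPM in high fat B-LGND2, 4.77 CPM in high fat vehicle and 4.36 CPM in normal diet vehicle livers. They had the same order as those of mt-Tq. The 3 high fat B-LGND2 libraries of mt-Tl1 were below its 3 high fat vehicle libraries, as for 17.2% of all genes tested.

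The other heavy strand tRNA genes with counts were under the filter. mt-Ts2 (serine) had 3, 0 and 5 counts in high fat B-LGND2 livers, 7, 5 and 13 in high fat vehicle livers and 10, 1 and 20 in normal diet vehicle livers. mt-Ti (isoleucine) had 4, 2 and 5 counts in high fat B-LGND2, 2, 7 and 4 in high fat vehicle and 3, 0 and 8 in normal diet vehicle livers. The groups overlapped for mt-Ti, and for mt-Ts2 between both vehicle groups. mt-Tl2, mt-Tt, mt-Tr, mt-Tf and mt-Tv had 9, 7, 3, 2 and 2 counts over all 9 libraries. In all, 10 tRNA genes had counts but were not tested, 3 on the light strand and 7 on the heavy strand.

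**Figure D2:**
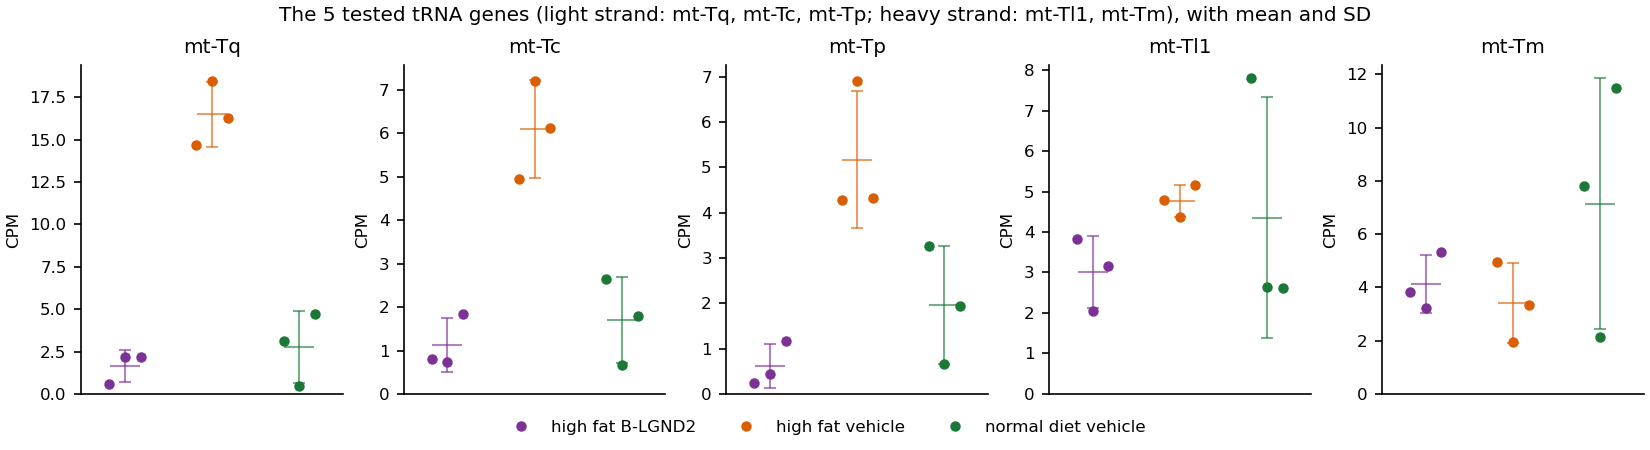
CPM (vertical axis, from 0) of the 5 tested tRNA genes in each library, with the group mean and SD; the groups run left to right as high fat B-LGND2, high fat vehicle and normal diet vehicle (n = 3 each). mt-Tq, mt-Tc and mt-Tp have their 3 high fat vehicle libraries above the other 6, and mt-Tl1 and mt-Tm do not.

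Summed over strands, the light strand share of tRNA counts set the high fat vehicle libraries apart. It was 16.9%, 37.5% and 37.1% in high fat B-LGND2 livers, 68.8%, 81.3% and 71.8% in high fat vehicle livers and 35.3%, 31.3% and 34.3% in normal diet vehicle livers. The lowest high fat vehicle share was 68.8%, with an exact 95% binomial interval of 62.4% to 74.7%. It was above the interval of every high fat B-LGND2 and normal diet vehicle library. In the high fat vehicle libraries mt-Tq, mt-Tc and mt-Tp together gave 145, 217 and 192 of the 159, 244 and 206 light strand counts. The share thus mostly restates these 3 genes and is not separate evidence. These intervals cover counting error only, since amplified reads without molecular identifiers are not independent molecules.

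The light strand counts themselves carried this split. Per 100000 counts in mitochondrial protein genes there were 2.79, 9.44 and 12.6 light strand tRNA counts in high fat B-LGND2 livers, 52.5, 77.1 and 56.6 in high fat vehicle livers and 8.78, 7.67 and 28.0 in normal diet vehicle livers. The heavy strand counts on the same scale were 13.8, 15.7 and 21.4 in high fat B-LGND2, 23.8, 17.7 and 22.2 in high fat vehicle and 16.1, 16.9 and 53.5 in normal diet vehicle livers. The light strand values did not overlap between the high fat vehicle libraries and the rest, and the heavy strand values did. mt-Nd6, the light strand's protein gene and a subunit of complex I, did not set the high fat vehicle libraries apart from all others. It took 2.43%, 1.87% and 2.83% of mitochondrial protein counts in high fat B-LGND2 livers. Its share was 2.22%, 2.25% and 2.15% in high fat vehicle livers and 1.51%, 1.96% and 2.00% in normal diet vehicle livers. Each high fat vehicle value was above every normal diet vehicle value. All of them lay within the range of the high fat B-LGND2 values.

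**Figure D3:**
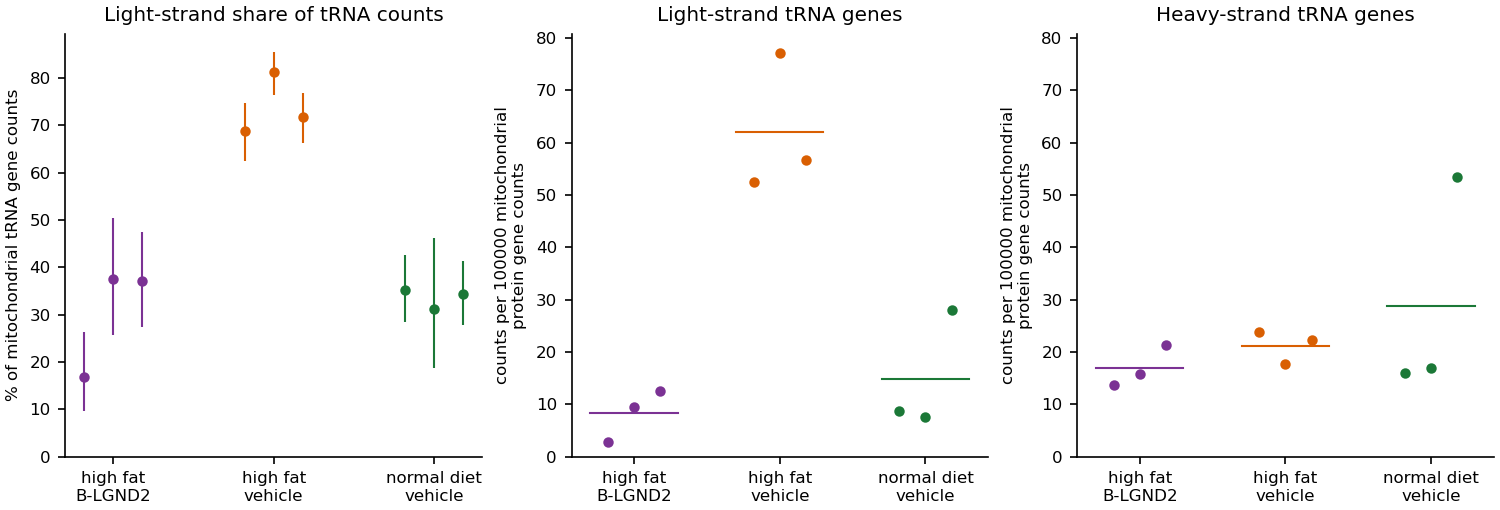
Left, the light strand's percentage of mitochondrial tRNA counts in each library with its exact 95% binomial interval; centre and right, light strand and heavy strand tRNA counts per 100000 mitochondrial protein counts, 1 point per library with a line at the group mean. The 3 high fat vehicle libraries lie at 68.8% to 81.3% on the left and at 52.5 to 77.1 in the centre, above the other 6, and overlap with them on the right.

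Other measures of the libraries moved with the same groups. Genes annotated as nuclear rRNA took 6.04%, 6.19% and 4.31% of counts in high fat B-LGND2 livers, 1.44%, 1.27% and 0.901% in high fat vehicle livers and 3.16%, 3.74% and 3.35% in normal diet vehicle livers. Nearly all of these counts belonged to 1 gene model, CT010467.1, which had 623826, 418121 and 249267 counts in the high fat B-LGND2 libraries. Nuclear noncoding RNA genes of up to 300 bases, a group formed after the data were seen, summed to 1320, 1661 and 993 CPM in high fat B-LGND2, 354, 192 and 238 CPM in high fat vehicle and 1366, 1297 and 1397 CPM in normal diet vehicle livers. Both the nuclear rRNA share and the short RNA sum were lowest in the 3 high fat vehicle libraries. The light strand tRNA counts were highest there. Only 14 of the 5567 short RNA genes could be tested singly. Under the high fat diet 4 of them passed, all lower (median log2 fold change -1.12 over the 14), beside 1.49% of all genes called lower. Under B-LGND2 3 passed, all higher, beside 3.07% of all genes, but the median over the 14 was only 0.10. In the third comparison 1 passed, as lower (median 0.02), beside 1.33% of all genes. The sums therefore do not show that the whole group moved. Across 10817 nuclear protein-coding genes, the Spearman correlation of gene length with a library's deviation from the mean log2 CPM was -0.26, 0.10 and 0.02 in high fat B-LGND2 libraries, 0.31, 0.35 and 0.31 in high fat vehicle libraries and 0.21, -0.14 and -0.46 in normal diet vehicle libraries, so long genes read highest in the high fat vehicle libraries. The genes share each library's depth and preparation, and the part of these measures in the tRNA result was not tested.

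The 7 protein genes with counts varied mostly through 1 library. mt-Co1, the catalytic subunit of cytochrome c oxidase, had 17783, 10588 and 14044 CPM in high fat B-LGND2 livers, 13768, 14962 and 16341 CPM in high fat vehicle livers and 30898, 8787 and 7973 CPM in normal diet vehicle livers. mt-Cytb, the cytochrome b subunit of complex III, had 12754, 8226 and 11473 CPM in high fat B-LGND2, 11741, 11606 and 11755 CPM in high fat vehicle and 25753, 6329 and 6527 CPM in normal diet vehicle livers. Replicate 1 of the normal diet vehicle group was the highest of the 9 libraries for both, and its 2 companions lay under every high fat vehicle library.

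The complex I subunits split in how they behaved. mt-Nd1 had 9434, 6176 and 6431 CPM in high fat B-LGND2 livers, 6460, 5693 and 5744 CPM in high fat vehicle livers and 17571, 5822 and 7298 CPM in normal diet vehicle livers, so its groups overlapped with and without the high library. mt-Nd5 had 3665, 2108 and 3242 CPM in high fat B-LGND2, 3904, 3878 and 4171 CPM in high fat vehicle and 8750, 1751 and 1834 CPM in normal diet vehicle livers. All 3 high fat B-LGND2 libraries were thus below all 3 high fat vehicle libraries for mt-Nd5, as for 17.2% of all genes tested.

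mt-Nd6, read from the light strand, had 1514, 698 and 1346 CPM in high fat B-LGND2 livers, 1108, 1070 and 1091 CPM in high fat vehicle livers and 1746, 634 and 683 CPM in normal diet vehicle livers. mt-Nd2 ranged over 4529 to 8505 CPM in high fat B-LGND2, 4471 to 5844 CPM in high fat vehicle and 4573 to 13778 CPM in normal diet vehicle livers. mt-Nd4 ranged over 5067 to 8631 CPM in high fat B-LGND2, 5943 to 7149 CPM in high fat vehicle and 4380 to 16980 CPM in normal diet vehicle livers. The high fat vehicle libraries were the tightest group for each of these 3 genes.

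Within the mitochondrial protein counts, the ratio of the downstream gene mt-Cytb to the upstream gene mt-Nd1 was highest in the high fat vehicle libraries. It was 1.35, 1.33 and 1.78 in high fat B-LGND2 livers, 1.82, 2.04 and 2.05 in high fat vehicle livers and 1.47, 1.09 and 0.894 in normal diet vehicle livers. Each high fat vehicle library had a higher ratio than every library of the other groups. The ratio of mt-Nd5 to mt-Nd1 split likewise, at 0.604 to 0.726 in high fat vehicle libraries and at most 0.504 elsewhere. That of mt-Co1 to mt-Nd1 did not, with 2.13 in high fat vehicle replicate 1 and 2.18 in high fat B-LGND2 replicate 3. No test was made of these ratios. mt-Nd1 took 11.3% to 12.9% of mitochondrial protein counts in high fat vehicle livers, less than the 13.5% to 16.5% in high fat B-LGND2 livers and the 15.2% to 21.4% in normal diet vehicle livers.

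The mitochondrial rRNA genes are the small (mt-Rnr1) and large (mt-Rnr2) ribosomal RNAs, transcribed from the heavy strand upstream of mt-Nd1. mt-Rnr1 had 2068, 2293 and 2069 CPM in high fat B-LGND2 livers, 2010, 1618 and 1593 CPM in high fat vehicle livers and 6200, 1685 and 2093 CPM in normal diet vehicle livers. mt-Rnr2 had 3772, 4377 and 5380 CPM in high fat B-LGND2, 3044, 2686 and 2489 CPM in high fat vehicle and 9417, 2805 and 5181 CPM in normal diet vehicle livers. Both were higher in every high fat B-LGND2 library than in any high fat vehicle library, as were 16.4% of all genes tested. Neither passed the test of that comparison in the fit of all libraries. The ratio of mt-Rnr2 to mt-Rnr1 was 1.82, 1.91 and 2.60 in high fat B-LGND2 livers, 1.51, 1.66 and 1.56 in high fat vehicle livers and 1.52, 1.66 and 2.47 in normal diet vehicle livers.

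**Figure D4:**
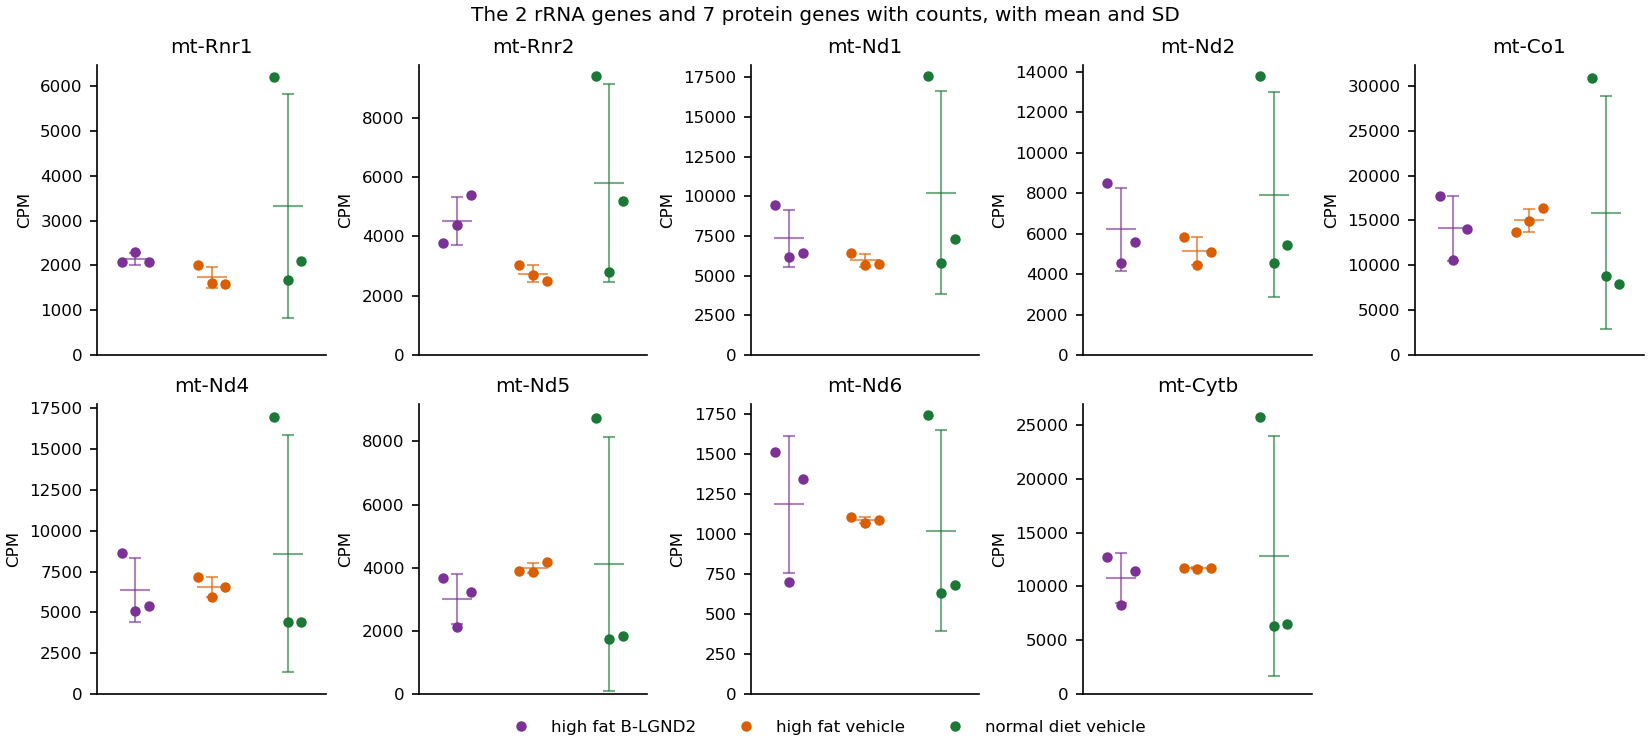
CPM (vertical axes, from 0) of the 2 rRNA genes and the 7 protein genes with counts in each library, with the group mean and SD; the groups run left to right as high fat B-LGND2, high fat vehicle and normal diet vehicle (n = 3 each). Replicate 1 of the normal diet vehicle group is the highest point in all 9 panels.

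The first comparison asked what the high fat diet did under vehicle. In high fat vehicle livers 2 of the 14 tested mitochondrial genes rose and none fell, and both were light strand tRNA genes. mt-Tq was 5.81-fold higher than in normal diet vehicle livers: its log2 fold change was 2.54 (SE 0.51, adjusted p = 0.0207, edgeR quasi-likelihood test, Benjamini-Hochberg over all genes). mt-Tc was 3.53-fold higher (1.82, SE 0.48, adjusted p = 0.0490), and mt-Tp gave 1.39 (SE 0.53, adjusted p = 0.137), although its libraries did not overlap between the groups. Over all genes tested, 2.99% were called in this comparison, 1.50% as higher and 1.49% as lower. The libraries of 30.1% of all genes did not overlap, 15.4% higher and 14.8% lower, beside 3 of the 14 tested mitochondrial genes, all higher. With 3 libraries against 3, an exact permutation test of a single gene cannot give a p under 0.1.

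The protein genes did not pass. Their log2 fold changes lay between -0.78 (mt-Nd1, SE 0.34, adjusted p = 0.186) and 0.09 (mt-Nd6, SE 0.35, adjusted p = 0.900), with a median of -0.14, against 1.39 for the 5 tRNA genes and 0.01 for all genes tested. The tRNA median was the value of mt-Tp, which was tested only because it was high in high fat vehicle livers. Among the tRNA genes the lowest was mt-Tm at -1.08 (SE 0.49, adjusted p = 0.209), and mt-Tl1 gave 0.13 (SE 0.43, adjusted p = 0.883). mt-Rnr1 gave -0.93 (SE 0.37, adjusted p = 0.149) and mt-Rnr2 gave -1.08 (SE 0.33, adjusted p = 0.0760), and DESeq2's Wald test called mt-Rnr2 lower (adjusted p = 0.0194), where it called 8.01% of all genes.

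Single libraries moved these values. Without replicate 1 of the normal diet vehicle group 6 mitochondrial genes were higher in high fat vehicle livers, namely mt-Tq, mt-Tc, mt-Tp (1.95, adjusted p = 0.0381), mt-Co1 (0.84, adjusted p = 0.0392), mt-Nd5 (1.15, adjusted p = 0.00988) and mt-Cytb (0.86, adjusted p = 0.0282), where 15.0% of all genes were called. Without any one of the 3 high fat vehicle libraries none was called, with an adjusted p for mt-Tq of 0.0673 to 0.0715. Of all genes, 0.280%, 0.529% and 0.316% were called without replicate 1, 2 and 3 of that group, against 2.99% with all libraries. mt-Tc passed only without replicate 1 of the normal diet vehicle group or replicate 3 of the high fat B-LGND2 group, and its adjusted p was 0.0534 to 0.197 without any of the other 7. Without replicate 1 of the normal diet vehicle group the values of mt-Rnr1, mt-Nd1 and mt-Rnr2 were -0.12, -0.14 and -0.54. mt-Rnr2 was called lower without replicate 2 of the normal diet vehicle group (-1.41, adjusted p = 0.0413).

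The second comparison asked what B-LGND2 did on the high fat diet. In high fat B-LGND2 livers 3 of the 14 tested mitochondrial genes fell and none rose, and all 3 were light strand tRNA genes. mt-Tq was 10.2-fold lower than in high fat vehicle livers: its log2 fold change was -3.36 (SE 0.54, adjusted p = 0.00389, edgeR quasi-likelihood test, Benjamini-Hochberg over all genes). mt-Tp was 8.72-fold lower (-3.12, SE 0.62, adjusted p = 0.0124) and mt-Tc 5.49-fold lower (-2.46, SE 0.50, adjusted p = 0.0140). Of all genes tested, 5.63% were called, 3.07% as higher and 2.56% as lower. The libraries did not overlap for 7 of the 14 tested mitochondrial genes, with both rRNA genes higher and mt-Tq, mt-Tc, mt-Tp, mt-Tl1 and mt-Nd5 lower, beside 33.6% of all genes, 16.4% higher and 17.2% lower. Under the filter, the libraries of mt-Ta and mt-Te were apart as well, both lower. mt-Tp reached the filter's minimum in none of the high fat B-LGND2 libraries and in all 3 high fat vehicle libraries, so it entered the count of called genes through the groups where it was higher.

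None of the 7 protein genes passed, with log2 fold changes between -0.41 (mt-Nd5, SE 0.50, adjusted p = 0.657) and 0.30 (mt-Nd1, SE 0.34, adjusted p = 0.618) and 0.12 for mt-Nd6 (SE 0.35, adjusted p = 0.863). Their median was -0.04, against -2.46 for the 5 tRNA genes and -0.0031 for all genes tested. The 5 tRNA genes include mt-Tp, which was tested only because it was high in high fat vehicle livers. The heavy strand tRNA genes gave -0.65 for mt-Tl1 (SE 0.44, adjusted p = 0.385) and 0.27 for mt-Tm (SE 0.51, adjusted p = 0.780). mt-Rnr1 gave 0.30 (SE 0.36, adjusted p = 0.650) and mt-Rnr2 0.72 (SE 0.33, adjusted p = 0.195), and in a fit of these 2 groups alone mt-Rnr2 was called higher (0.74, adjusted p = 0.0394).

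mt-Tq passed in all 9 fits that left out 1 library, with an adjusted p of at most 0.0320. mt-Tc and mt-Tp passed in 7 of the 9: without replicate 2 of the high fat vehicle group their adjusted p was 0.0748 and 0.0673, and without replicate 1 of the high fat B-LGND2 group it was 0.0774 and 0.0745. Without those libraries 0.801% and 1.08% of all genes were called. High fat vehicle livers were the shared side of both comparisons, which are therefore not independent of each other.

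The 4 tRNA genes with most counts among those under the filter were compared by their summed counts. High fat vehicle livers held 28 of the 32 counts of mt-Ta and 26 of the 44 counts of mt-Te. This choice thus favoured genes that were high in that group. The intervals below pool the mice of a group and do not measure the spread among them. mt-Ta had 2 counts in high fat B-LGND2 livers and 28 in high fat vehicle livers, a ratio of 0.0663 per scaled library total with an exact 95% Poisson interval of 0.00765 to 0.263, which covers counting error only. mt-Te had 2 and 26 counts, a ratio of 0.0714 (0.00821 to 0.285). In high fat vehicle against normal diet vehicle livers mt-Ta had 28 and 2 counts, a ratio of 13.9 (3.50 to 120), and mt-Te had 26 and 16, a ratio of 1.61 (0.831 to 3.21). The heavy strand gene mt-Ts2 had 8 counts in high fat B-LGND2 and 25 in high fat vehicle livers, a ratio of 0.297 (0.116 to 0.679), although its highest high fat B-LGND2 library, at 0.833 CPM, was above its lowest high fat vehicle library, at 0.752 CPM. Against the 31 counts in normal diet vehicle livers, the ratio of high fat B-LGND2 was 0.237 (0.0942 to 0.527) for mt-Ts2, and it was 0.115 (0.0128 to 0.488) for mt-Te. mt-Ti, also on the heavy strand, had 11 counts in high fat B-LGND2 and 13 in high fat vehicle livers, a ratio of 0.785 (0.318 to 1.90). In a fit without the filter, where 6.25% of all genes were called lower or higher with the ligand and 5.49% with the diet, mt-Ta passed in both comparisons (adjusted p = 0.0331 with the ligand and 0.0432 with the diet) and mt-Te with the ligand (adjusted p = 0.0213), while mt-Ts2 and mt-Ti passed in neither.

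The third comparison set high fat B-LGND2 livers beside normal diet vehicle livers. None of the 14 mitochondrial genes passed edgeR's quasi-likelihood test, where 2.93% of all genes were called, 1.59% as higher and 1.33% as lower. DESeq2's Wald test called 0, where it called 5.45% of all genes. Only mt-Tp had an unadjusted p under 0.05, with a log2 fold change of -1.74 (SE 0.66, adjusted p = 0.161), the lowest of the tRNA genes, of which mt-Tl1 was the highest at -0.52 (SE 0.44, adjusted p = 0.555). mt-Tq gave -0.82 (SE 0.58, adjusted p = 0.464) and mt-Tc -0.64 (SE 0.54, adjusted p = 0.554). The protein genes lay between -0.48 (mt-Nd1, SE 0.34, adjusted p = 0.459) and 0.22 (mt-Nd6, SE 0.35, adjusted p = 0.784), and mt-Rnr1 and mt-Rnr2 gave -0.63 (SE 0.37, adjusted p = 0.355) and -0.36 (SE 0.33, adjusted p = 0.578). None of the 14 tested genes had libraries that did not overlap between these groups, beside 20.5% of all genes. Under the filter, mt-Te had 0, 0 and 2 counts in high fat B-LGND2 livers against 6, 3 and 7 in normal diet vehicle livers, which did not overlap in CPM either.

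**Figure D5:**
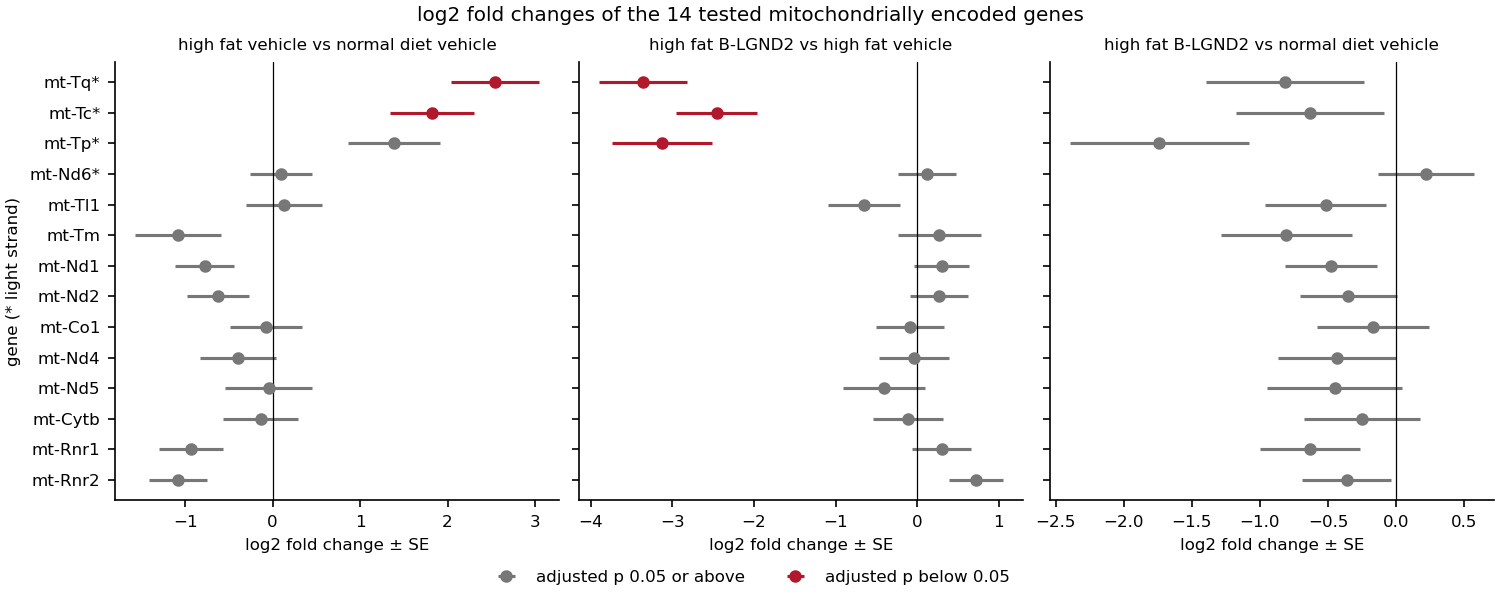
log2 fold changes with their SE (horizontal axes) of the 14 tested mitochondrially encoded genes in the 3 comparisons, light strand genes marked with an asterisk and genes with an adjusted p below 0.05 in red. mt-Tq and mt-Tc lie to the right at 2.54 and 1.82 with the high fat diet, mt-Tq, mt-Tp and mt-Tc lie to the left at -3.36, -3.12 and -2.46 with B-LGND2, and no gene is red in the third panel.

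Set directly against the protein genes, tRNA counts per 100000 mitochondrial protein counts were 16.6, 25.2 and 34.0 in high fat B-LGND2 livers, 76.2, 94.7 and 78.8 in high fat vehicle livers and 24.9, 24.6 and 81.4 in normal diet vehicle livers. The high fat B-LGND2 libraries were below the high fat vehicle libraries, while replicate 3 of the normal diet vehicle group reached the high fat vehicle range. On the log2 scale the mean ratio was -1.78 in high fat B-LGND2 relative to high fat vehicle livers, and 1.17 in high fat vehicle relative to normal diet vehicle livers. With libraries scaled to their mitochondrial protein counts, mt-Tq remained lower with B-LGND2 (-3.19, adjusted p = 0.00253, edgeR quasi-likelihood test). mt-Tp also passed (-3.05, adjusted p = 0.0469), but it was tested only because it was high in high fat vehicle livers. mt-Tc did not pass (-2.41, adjusted p = 0.154), and 0.248% of all genes were called. With that scaling no mitochondrial gene passed with the diet, where mt-Tq gave 2.50 (adjusted p = 0.0534) and 0.157% of all genes were called.

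The nuclear genes that make and process mitochondrial RNA were taken as 4 lists: transcription and replication, RNA processing and decay, tRNA and rRNA modification, and mitochondrial aminoacyl-tRNA synthetases. Of their 82 tested members, 0 were higher and 1 was lower with the high fat diet, 1 was higher and 1 lower with B-LGND2, and 0 were higher and 1 lower in high fat B-LGND2 against normal diet vehicle livers, beside 2.99%, 5.63% and 2.93% of all genes called in either direction. The median log2 fold changes over the 82 were -0.14, -0.16 and -0.22 in those comparisons, against 0.01, -0.0031 and -0.0058 over all genes. Tfam and Polrmt, the activator and the polymerase of mitochondrial transcription, and Elac2 and Trmt10c, which act at the tRNA ends, did not pass in any of the 3.

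Lars2, which charges the mitochondrial leucine tRNAs, moved most. It had 70663, 47021 and 51543 counts in high fat B-LGND2 livers, 7645, 4452 and 4441 in high fat vehicle livers and 59659, 36416 and 45265 in normal diet vehicle livers. The high fat vehicle libraries lay below all 6 others. Its log2 fold change was -3.08 with the diet (SE 0.31, adjusted p = 1.07e-04, edgeR's quasi-likelihood test) and 3.22 with B-LGND2 (SE 0.31, adjusted p = 3.1e-05), and it passed without any one library. It ran in the direction opposite to mt-Tq and the same as the nuclear rRNA share given above. The part of that share in the Lars2 counts was not tested. In normal diet vehicle livers Lars2 was at 6022 to 9304 CPM. No other synthetase gene of the list exceeded 64.2 CPM in any library. mt-Tl1, a tRNA that Lars2 charges, did not pass in any comparison.

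Lrpprc, which stabilises heavy strand mRNAs, had 20.3 ± 6.64 CPM in high fat B-LGND2 livers and 45.9 ± 6.40 CPM in high fat vehicle livers (SD, n = 3 each), a log2 fold change of -1.18 (SE 0.26, adjusted p = 0.0202). Without replicate 1 or 2 of the high fat vehicle group or replicate 1 of the high fat B-LGND2 group its adjusted p was 0.0824 to 0.0984. The mitochondrial protein genes did not pass in the same comparison. Nars2, which charges the mitochondrial asparagine tRNA, had 11.9 ± 1.25 CPM in high fat B-LGND2 livers and 24.6 ± 1.24 CPM in normal diet vehicle livers (-1.05, SE 0.23, adjusted p = 0.0254), and an adjusted p of 0.0591 to 0.0875 without replicate 2 of the normal diet vehicle group or replicate 1 or 2 of the high fat B-LGND2 group. With only these 2 groups fitted its adjusted p was 0.0834.

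Of 39 nuclear genes for subunits of the same respiratory complexes and ATP synthase, 0 were called with the high fat diet. In that comparison 2.99% of all genes were called. The median log2 fold change of the 39 was -0.44 there, against 0.01 over all genes. With B-LGND2, 1 was higher (Atp5g1, 1.42, adjusted p = 0.0418) and 3 were lower (Ndufs3, -1.35, adjusted p = 0.0437; Cox5a, -1.18, adjusted p = 0.0489; Atp5a1, -0.67, adjusted p = 0.0489), with a median of -0.11, where 5.63% of all genes were called. Each of these 4 passed in 2 to 4 of the 9 fits that left out 1 library, and none passed without any one high fat vehicle library or without replicate 1 of the high fat B-LGND2 group. With the replicate number as a block none of the 4 passed (adjusted p = 0.0554 to 0.0803). In high fat B-LGND2 against normal diet vehicle livers 1 of the 39, Atp5c1, was lower (-1.19, adjusted p = 0.0250, edgeR quasi-likelihood test). There 2.93% of all genes were called in either direction. The adjusted p of Atp5c1 was 0.0927 and 0.0561 without replicate 1 or 2 of the high fat B-LGND2 group. It was 0.0686 with only these 2 groups fitted.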

How the data were processed

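The deposited table held raw counts per gene, made by the authors; per the submitters' processing notes, HTSeq 0.6.1p1, TopHat2 2.0.13, SAMtools 0.1.19, Bowtie2 2.2.4, the build GRCm38.p3 and DESeq2 1.6.3 were used. Per the labels' protocols, poly(A) RNA was enriched from total RNA, made into libraries with the Ion Total RNAseq V2 kit, amplified and read on an Ion Torrent Proton. The sources used here give neither the strand setting nor the annotation release, nor how reads with several alignments were treated.

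Symbols, coordinates and sequences came from GENCODE M21, which named 44585 of the 45513 IDs; nuclear copies were sought with blastn 2.17.0 (at least 99% identity over 30 bases). Counts were tested with edgeR 4.0.16 in R 4.3.3 (filterByExpr with a minimum count of 10, TMM scaling, robust quasi-likelihood fit of all 9 libraries, two-sided, Benjamini-Hochberg over 12102 genes, threshold 0.05), and DESeq2 1.42.0 was an alternative; the scripts were tested on simulated data. CPM used TMM-scaled totals. Totals were 5778978 to 10322972 counts, which left the tRNA genes 48 to 300 counts per library.

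Groups followed the sample titles. The labels give 3 mice per group, so p-values reflect the spread among these mice's libraries; no 2 libraries agreed within sampling noise. Named were all mitochondrial genes called, the rRNA genes, mt-Nd6, the protein and tRNA genes with the highest and lowest fold change in each comparison, and called members of the nuclear lists. The members and lists were chosen with earlier results of these data known. Alternatives covered scaling, filter, test, groups fitted, a replicate block and each library left out.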

Additional observations from a re-analysis of the deposited data

How the results depend on the processing

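The count of mitochondrial genes called with the high fat diet, 2, became 0 when scaled to mitochondrial protein counts, 6 without the low-count filter (mt-Nd1, mt-Rnr1 and mt-Rnr2 lower, mt-Ta, mt-Tc and mt-Tq higher), 1 with at least 50 counts in 3 libraries, 1 without robust dispersions, 1 with only the 2 groups fitted, and 0 to 6 when 1 library was left out. With B-LGND2, 3 became 5 without the filter, 1 with at least 50 counts, and 1 to 4 with 1 library left out. The third comparison had 0 throughout. Of all genes, the diet fits called 0.157% when scaled to mitochondrial protein counts, 5.49% without the filter and 4.07% with at least 50 counts. They called 2.90% without robust dispersions, 1.31% with only the 2 groups and 0.280% to 15.0% with 1 library left out. The B-LGND2 fits called 6.25% without the filter, 6.32% with at least 50 counts and 0.801% to 11.6% with 1 library left out. Without mt-Tq the light strand share averaged 56.7% in high fat vehicle and 25.0% in normal diet vehicle livers, and the log2 ratio of tRNA to protein counts was -1.26 with B-LGND2. The causes were not tested. DESeq2 called 3 with the diet and 3 with B-LGND2, where it called 8.01% and 9.28% of all genes. DESeq2 size factors, library size alone and totals without mitochondrial genes left the edgeR counts of 2 and 3 as they were.

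No fold change of a mitochondrial gene called in the fit of all libraries changed sign; those of some uncalled genes did, and mt-Co1, mt-Nd5 and mt-Cytb were called higher with the diet without replicate 1 of the normal diet vehicle group. With library size alone, which moved the median of all genes to 0.17 with the diet and -0.18 with B-LGND2, mt-Co1, mt-Nd5 and mt-Cytb gave 0.083, 0.12 and 0.025 with the diet and mt-Nd6 -0.068 with B-LGND2. Scaled to protein counts, the same 3 gave 0.24, 0.40 and 0.22 with the diet, and mt-Co1 and mt-Cytb 0.16 and 0.13 in the third comparison. With 1 library left out, diet values ranged from -0.90 to 0.037 (mt-Nd2), -0.40 to 0.84 (mt-Co1), -0.71 to 0.57 (mt-Nd4), -0.41 to 1.15 (mt-Nd5), -0.46 to 0.86 (mt-Cytb), -0.14 to 0.85 (mt-Tl1) and -0.16 to 0.72 (mt-Nd6). B-LGND2 values ranged from -0.29 to 0.12 (mt-Nd4), -0.0082 to 0.62 (mt-Tm), -0.063 to 0.41 (mt-Nd6), -0.26 to 0.10 (mt-Co1) and -0.22 to 0.071 (mt-Cytb). In the third comparison they ranged from -0.95 to 0.18 (mt-Rnr1), -0.69 to 0.17 (mt-Rnr2), -0.79 to 0.20 (mt-Tl1), -0.76 to 0.16 (mt-Nd1), -0.64 to 0.31 (mt-Nd2), -0.49 to 0.75 (mt-Co1), -0.75 to 0.53 (mt-Nd4), -0.82 to 0.74 (mt-Nd5), -0.035 to 0.85 (mt-Nd6) and -0.58 to 0.75 (mt-Cytb).

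The groups share the replicate numbers 1 to 3, but same-numbered libraries did not deviate together (correlations -0.19 to 0.12, against -0.13 to 0.18 for other numbers). No pairing was therefore seen. With 3 libraries in each group this check cannot exclude a weak one. A replicate block left 1 call with the diet, mt-Tq (mt-Tc had an adjusted p of 0.0688), and 3 with B-LGND2, and turned mt-Co1, mt-Nd5 and mt-Cytb to 0.19, 0.33 and 0.15 with the diet and mt-Co1 to 0.0096 in the third comparison. The nuclear genes' alternatives were added after the data were seen. Scaled to mitochondrial protein counts, Lars2 passed with the diet and with B-LGND2, and the calls of Lrpprc, Nars2, Gm28438, Atp5g1, Ndufs3, Cox5a, Atp5a1 and Atp5c1 were lost. The block ended the calls of Atp5g1, Ndufs3, Cox5a and Atp5a1 (adjusted p = 0.0604, 0.0664, 0.0554 and 0.0803), and fitting 2 groups alone ended those of Nars2 (0.0834) and Atp5c1 (0.0686). Cox5a and Atp5a1 were also lost with DESeq2 size factors (0.0513 and 0.0521) and without robust dispersions (0.0513 and 0.0549), Cox5a with at least 50 counts (0.0516) and Atp5a1 without the filter (0.0618).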
